A study of Mus musculus with 6 samples.

Results

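The Cyp3a family was examined in mouse liver RNA through every array probe whose gene name in the scanner files begins with Cyp3a. This rule took 8 probes for 6 genes, of 41174 probes and 27962 gene names in all: Cyp3a11, Cyp3a13, Cyp3a16 and Cyp3a41 with 1 probe each, and Cyp3a25 and Cyp3a44 with 2 probes each, which were kept apart. A search by the current symbol of each probe's accession found the same 8 probes, with the probe named Cyp3a41 now assigned to Cyp3a41a. Male 129/Sv mice, 6-8 weeks old at the start, were fed either a liquid diet with 4% ethanol (the alcohol group) or an isocaloric liquid diet with maltose dextran (the control group) for 1, 2 or 4 months, after all of them had received the control liquid diet. Liver RNA of 6 mice was pooled for each diet and time point, which gave 6 pools, and the 2 pools of a time point were hybridized together on 2 two-color arrays with the Cy3 and Cy5 dyes exchanged. No pool was repeated, so no value below measures the variation between mice by itself. Fits over the time points hold it mixed with the differences between those times. An SD is given over the 2 arrays of a time point, which hold the same RNA, and is technical. A probe reads transcript in bulk liver RNA, where fewer cells expressing a gene and less RNA per cell cannot be told apart.

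Cyp3a enzymes are heme-containing monooxygenases of the endoplasmic reticulum that oxidize drugs, steroid hormones and bile acids. Many of their genes are switched on by the pregnane X receptor (PXR, gene Nr1i2), a nuclear receptor that binds foreign compounds and bile acids, pairs with a retinoid X receptor and recognizes repeats of a short hexamer upstream of its targets; the constitutive androstane receptor (CAR, gene Nr1i3) acts on an overlapping set. Cyp3a11 is the classical PXR-responsive member in adult mouse liver, whereas Cyp3a16, Cyp3a41 and Cyp3a44 are known for higher levels in female than in male mouse liver, a difference set by the sex-dependent pattern of growth hormone.

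In the mouse assembly GRCm38.p6 the 6 genes lie on chromosome 5. Cyp3a16 (chr5:145436309-145469740), Cyp3a41a (chr5:145694049-145720136), Cyp3a44 (chr5:145773983-145805891), Cyp3a11 (chr5:145854607-145879854) and Cyp3a25 (chr5:145977192-146009644) form a cluster, while Cyp3a13 (chr5:137892933-137925610) stands apart. The 250 bases before the start that RefSeq's promoter windows use are shown for the genes of the cluster. That start is the end of the gene interval given above for Cyp3a11 and Cyp3a41a, lies a few bases inside it for Cyp3a16, Cyp3a44 and Cyp3a25, and lies well inside it for Cyp3a13, whose window is not upstream of the whole gene. Capitals mark the nuclear receptor hexamer AGNTCA on either strand, where N is any base.
Cyp3a11, chr5:145879855-145880104, minus strand: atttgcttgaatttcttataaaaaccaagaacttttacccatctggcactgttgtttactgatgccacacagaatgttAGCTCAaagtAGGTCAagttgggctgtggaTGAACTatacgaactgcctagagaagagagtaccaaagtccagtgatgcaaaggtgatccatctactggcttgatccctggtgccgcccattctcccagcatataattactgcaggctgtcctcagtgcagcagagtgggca
Cyp3a16, chr5:145469724-145469973, minus strand: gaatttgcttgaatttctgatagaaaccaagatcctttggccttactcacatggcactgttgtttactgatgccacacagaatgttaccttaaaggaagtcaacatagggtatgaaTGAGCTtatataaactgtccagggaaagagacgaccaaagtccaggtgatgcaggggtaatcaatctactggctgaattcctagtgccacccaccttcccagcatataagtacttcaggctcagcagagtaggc
Cyp3a41a, chr5:145720137-145720386, minus strand: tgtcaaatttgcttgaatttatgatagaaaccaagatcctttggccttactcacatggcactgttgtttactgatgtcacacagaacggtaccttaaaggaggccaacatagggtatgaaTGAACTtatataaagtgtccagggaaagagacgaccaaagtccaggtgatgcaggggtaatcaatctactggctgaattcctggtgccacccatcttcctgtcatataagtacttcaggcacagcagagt
Cyp3a44, chr5:145805875-145806124, minus strand: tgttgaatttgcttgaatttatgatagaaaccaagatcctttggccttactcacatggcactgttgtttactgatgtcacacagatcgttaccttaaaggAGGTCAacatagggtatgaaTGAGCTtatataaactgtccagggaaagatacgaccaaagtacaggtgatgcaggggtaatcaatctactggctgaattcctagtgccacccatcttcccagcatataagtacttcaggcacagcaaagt
Cyp3a25, chr5:146009619-146009868, minus strand: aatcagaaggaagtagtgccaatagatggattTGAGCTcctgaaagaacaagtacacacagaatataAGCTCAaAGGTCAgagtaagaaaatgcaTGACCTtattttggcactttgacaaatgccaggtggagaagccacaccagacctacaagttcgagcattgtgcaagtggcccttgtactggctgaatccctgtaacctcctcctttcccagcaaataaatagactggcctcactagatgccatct

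Over these 250 bases, pairwise global alignments among Cyp3a11, Cyp3a16, Cyp3a41a and Cyp3a44 gave 72.5% to 94.4% identity, with 92.9% between Cyp3a16 and Cyp3a44 and 94.4% between Cyp3a41a and Cyp3a44. Cyp3a11 stood at 72.5% to 76.6% to the other genes of this group. Between any of these 4 genes and Cyp3a25 or Cyp3a13 the identity was 54.5% to 58.0%. A bearing of this likeness on the ratios was not tested. The hexamer AGNTCA occurred 3 times in the Cyp3a11 window, 2 times in that of Cyp3a44, once in those of Cyp3a16 and Cyp3a41a and 4 times in that of Cyp3a25, and 41.3% of all 32851 promoter windows of this length held it at least once. As a direct repeat with 4 bases between the hexamers it was found in Cyp3a11, at positions -172 to -157 from the start, an arrangement held by 0.104% of all windows. As a direct repeat with 1 base between, it was found in Cyp3a25, at -183 to -171 (0.183% of all windows). The matches of the repeats overlap those of the single hexamer. No direct repeat with 3 bases between (0.0518%), no everted repeat with 6 bases between (0.0304%) and no STAT5 motif TTCNNNGAA (7.02%) lay in any of these windows, nor did the hexamer lie in the Cyp3a13 window. A match is a string of letters and not a bound site. The transcripts of these genes are close copies of each other, the probe sequences were not used here, and the probes of Cyp3a11, Cyp3a16, Cyp3a41 and Cyp3a44 may therefore share signal. Cyp3a41b, whose window was 99.6% identical to that of Cyp3a41a, had no probe assigned to it, and the probe of Cyp3a41 may read it too.

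Each of the 8 probes gave 12 readings, from 6 arrays with 2 channels, of which 0 were saturated and 0 failed the scanner software's mark for a signal well above background. Across the arrays, 73.3% to 90.3% of the non-control spots of a channel passed the same mark. The dye weighed on single ratios. Over the 27900 probes that carried this mark throughout, the ratios (log2, alcohol over control) on the paired arrays correlated at 0.16 at 1 month, -0.30 at 2 months and -0.32 at 4 months (Pearson, across probes, which are not replicates). The 6 arrays came from 2 slides, one of which carried only the 1-month arrays, so a slide effect cannot be told apart from the step between 1 month and the later times.

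The probes of Cyp3a11, Cyp3a16, Cyp3a41 and Cyp3a44 were higher in the alcohol pool on all 6 arrays, and their averaged ratios were larger at 4 months than at 2 months and at 2 months than at 1 month. Their averaged alcohol over control ratios spanned 1.54-fold to 1.92-fold at 1 month, 1.95-fold to 2.47-fold at 2 months and 4.22-fold to 5.42-fold at 4 months. The probes of Cyp3a25 lay between 1.28-fold lower and 1.02-fold higher in the alcohol pool, and that of Cyp3a13 between 1.07-fold and 1.45-fold higher. The probes tested below are the 37922 with that mark in any channel of any array, and of these 1.49% stood higher in the alcohol pool on all 6 arrays, against 5 of the 8 Cyp3a probes. The division into these 5 probes and the other 3 was made after their values were seen and was not tested.

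Cyp3a11 encodes the main drug-oxidizing Cyp3a enzyme of adult mouse liver. Its log2 ratio was 0.76 with alcohol in Cy5 and 1.13 with alcohol in Cy3 at 1 month. It was 0.77 and 1.80 at 2 months, then 1.73 and 3.08 at 4 months. Both arrays of 4 months were above both arrays of 1 month, and the array with alcohol in Cy3 was the higher one each time. The averages were 0.94 ± 0.26, 1.29 ± 0.73 and 2.40 ± 0.96 (SD, n = 2 arrays), or 1.92-fold, 2.44-fold and 5.29-fold, and at 4 months Cyp3a11 ranked number 10 from the top of the 37922 probes.

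Cyp3a16 is a member best known from fetal and female liver. It read 0.86 and 0.83 at 1 month, 0.83 and 1.79 at 2 months, then 1.82 and 3.06 at 4 months, again as log2 ratios with alcohol in Cy5 first and in Cy3 second. The 2 arrays nearly coincided at 1 month and lay far apart at 4 months, where the lower of them still exceeded every earlier reading. The averages were 0.84 ± 0.03, 1.31 ± 0.68 and 2.44 ± 0.88, that is 1.80-fold, 2.47-fold and 5.42-fold, the largest averaged ratio of the 8 probes at 2 and at 4 months.

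Cyp3a41, a female-predominant member, had the most even readings at 2 and 4 months. Its log2 ratio was 0.97 and 0.72 at 1 month, 1.06 and 1.21 at 2 months, then 2.07 and 2.09 at 4 months. The ranges of the 3 time points did not overlap. The averages were 0.84 ± 0.17, 1.14 ± 0.11 and 2.08 ± 0.02, or 1.80-fold, 2.20-fold and 4.22-fold.

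Cyp3a44, also female-predominant, was read by 2 probes of the same transcript. With A_52_P571006 the log2 ratio was 0.89 and 0.79 at 1 month, 0.95 and 1.48 at 2 months, then 2.20 and 2.37 at 4 months. With A_52_P366803 it was 0.63 and 0.61, 0.77 and 1.16, and 1.94 and 2.53. Both probes gave the same order of time points on each dye orientation, and the second was the lower of them on 5 of 6 arrays. Their averages were 0.84 ± 0.07, 1.22 ± 0.38 and 2.28 ± 0.12 (4.87-fold at 4 months) for the first, and 0.62 ± 0.01, 0.96 ± 0.27 and 2.23 ± 0.42 (4.69-fold) for the second.

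Cyp3a25, a member of adult liver and intestine, did not follow this pattern. With A_52_P380314 its log2 ratio was -0.34 and -0.03 at 1 month, -0.86 and 0.14 at 2 months, then -0.57 and 0.61 at 4 months. With A_51_P489367 it was -0.39 and -0.20, -0.51 and -0.10, and -0.44 and 0.30. Every array with alcohol in Cy5 put Cyp3a25 lower in the alcohol pool, whereas the arrays with alcohol in Cy3 disagreed in sign between time points and probes. The averages were -0.19 ± 0.22, -0.36 ± 0.70 and 0.02 ± 0.83 for the first probe and -0.29 ± 0.13, -0.31 ± 0.29 and -0.07 ± 0.53 for the second, so the dye spread exceeded the average for the first probe at each time point and for the second at 4 months.

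Cyp3a13, the member outside the cluster, which is known from intestine as well as liver, read 0.46 and 0.54 at 1 month, -0.19 and 0.38 at 2 months, then 0.16 and 0.92 at 4 months as log2 ratios. It was higher in the alcohol pool on both arrays of 1 and of 4 months and of mixed sign at 2 months. The averages were 0.50 ± 0.06, 0.10 ± 0.40 and 0.54 ± 0.54, or 1.42-fold, 1.07-fold and 1.45-fold.

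**Figure D1:**
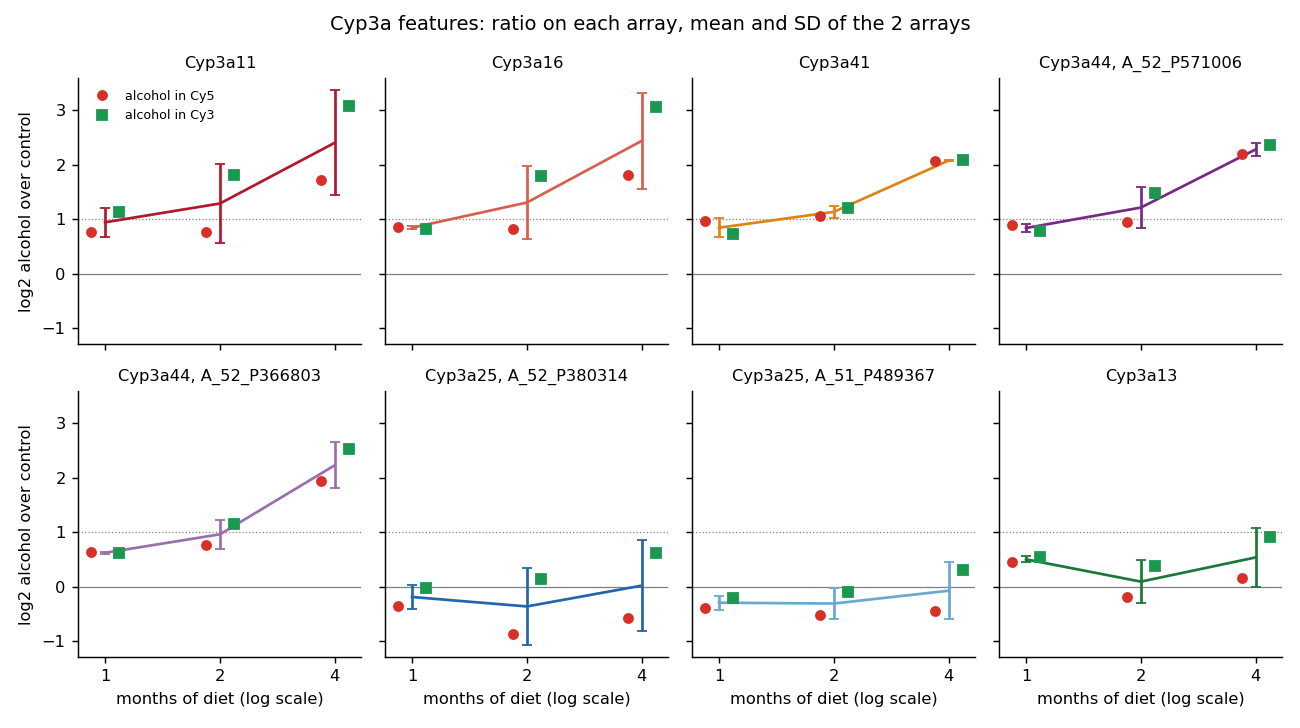
Log2 alcohol over control ratio (y axis) of the 8 Cyp3a probes after 1, 2 and 4 months of diet (x axis, log scale); circles are arrays with alcohol in Cy5, squares arrays with alcohol in Cy3, lines join their means and bars are the SD of the 2 arrays, with a dotted line at 2-fold. The 5 probes of Cyp3a11, Cyp3a16, Cyp3a41 and Cyp3a44 average 2.08 to 2.44 at 4 months, while the averages of Cyp3a25 and Cyp3a13 stay at or below 0.54 and their single arrays reach 0.61 and 0.92.

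At 2 and at 4 months, all 8 Cyp3a probes had the higher ratio on the array with alcohol in Cy3, as did 52.6% and 51.6% of all probes tested, and at 1 month 4 of the 8 did (50.1% of all probes tested). The cause of this dye dependence was not tested. At 2 and 4 months the SD of the 2 arrays was 0.11 and 0.02 for Cyp3a41 and 0.73 and 0.96 for Cyp3a11. Each average holds both dye orientations equally, and the probes of Cyp3a11, Cyp3a16, Cyp3a41 and Cyp3a44 were above 0 in each orientation at every time point.

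A probe counted as raised if the average of its 2 arrays reached 2-fold and the deposited technical error of that average gave a p under 0.05, a filter that describes 1 pool against 1 pool. At 1 month 0 of the 8 Cyp3a probes were raised, where 0.126% of all 41174 probes were. At 2 months 4 were raised, those of Cyp3a11, Cyp3a16 and Cyp3a41 and A_52_P571006 of Cyp3a44, against 0.16% of all probes, and at 4 months 5 were, now with both Cyp3a44 probes, against 0.34%. Nearest to the limit at 2 months were A_52_P366803 below it, at 1.95-fold, and Cyp3a41 above it, at 2.20-fold. At 1.5-fold in place of 2-fold, the 5 probes were all raised at 1 month, against 0.345% of all probes. On single arrays, at least 2-fold on both was reached by 1 probe at 2 months, that of Cyp3a41, where 0.0949% of the 37922 probes reached it, and by 5 at 4 months, where 0.224% did.

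**Figure D2:**
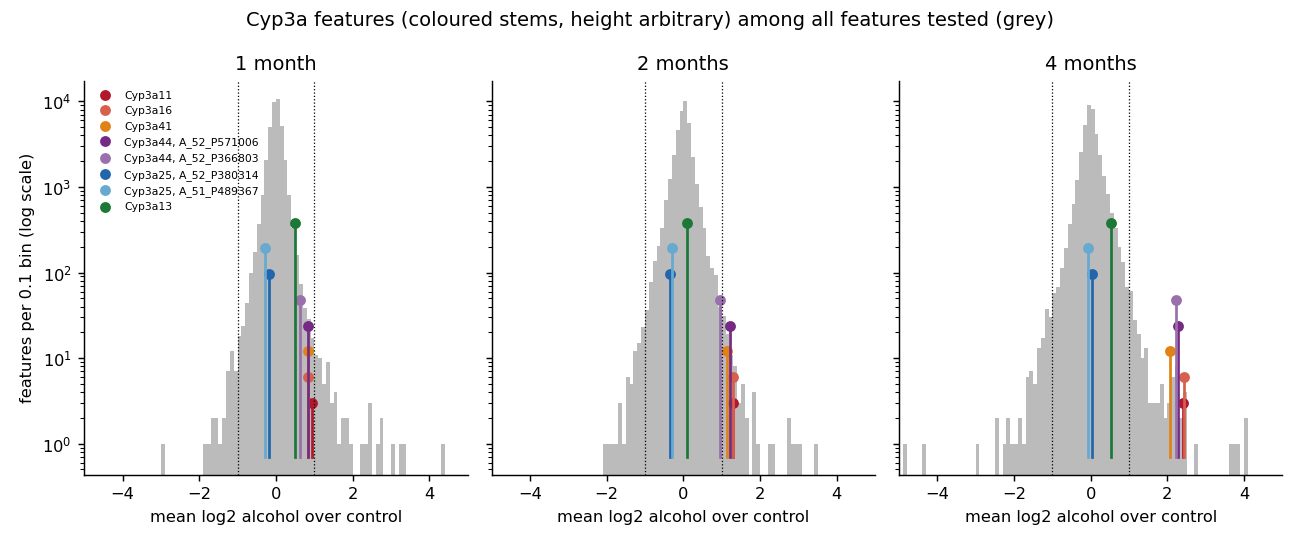
Number of probes tested (y axis, log scale) by averaged log2 alcohol over control ratio (x axis) at 1, 2 and 4 months in grey, with the 8 Cyp3a probes as coloured stems whose height has no meaning and dotted lines at 2-fold. The 5 probes of Cyp3a11, Cyp3a16, Cyp3a41 and Cyp3a44 lie beyond the 99th percentile of all probes at each time point, which is 0.50, 0.66 and 0.80.

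Limma took the 3 time points as replicates, so the spread behind its intervals also holds differences with time and slide. The mean log2 ratio over them in limma was 1.55 (95% interval 0.79 to 2.30) for Cyp3a11, 1.53 (0.72 to 2.34) for Cyp3a16, 1.35 (0.71 to 2.00) for Cyp3a41, and 1.45 (0.71 to 2.19) and 1.27 (0.44 to 2.11) for the 2 probes of Cyp3a44. It was 0.38 (0.10 to 0.66) for Cyp3a13, and -0.17 (-0.41 to 0.06) and -0.22 (-0.42 to -0.03) for the probes of Cyp3a25. None passed after Benjamini-Hochberg adjustment over the 37922 probes: limma's adjusted p was 0.62 for 7 of the probes and 0.661 for A_52_P380314 of Cyp3a25, and 0 probes of all (0%) passed, against 3028 at an unadjusted p under 0.05. At an unadjusted p under 0.05, 6 Cyp3a probes were higher, where 3.54% of all probes were, and A_51_P489367 of Cyp3a25 was lower, where 4.44% of all probes were. The latter did not hold in limma without the 4-month array of alcohol in Cy5 (mean -0.10, unadjusted p = 0.558), and without 1 month it held neither for this probe (unadjusted p = 0.129) nor for Cyp3a13 (unadjusted p = 0.0973). On the slide of 2 and 4 months alone, the means of the 5 probes were 1.60 to 1.87, with limma adjusted p of 0.378 to 0.385.

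Per doubling of time, the fitted rise of the log2 ratio (a slope on log2 month) was 0.73 ± 0.13 (SE) for Cyp3a11, 0.80 ± 0.12 for Cyp3a16, 0.62 ± 0.12 for Cyp3a41, and 0.72 ± 0.13 and 0.80 ± 0.15 for Cyp3a44. It was 0.10 ± 0.11 and 0.11 ± 0.09 for Cyp3a25 and 0.02 ± 0.14 for Cyp3a13. With limma's adjusted p of 0.616 to 0.627 none of the 5 passed, and 0 of all probes (0%) did, against 2813 at an unadjusted p under 0.05. At an unadjusted p under 0.05 the 5 had positive slopes, as did 4.28% of all probes. After normexp background correction and loess, Cyp3a16 passed (adjusted p = 0.0402 in limma), where 0.0607% of all probes passed with a positive slope. With the array of alcohol in Cy3 alone standing for 4 months, the probes of Cyp3a11, Cyp3a16 and Cyp3a44 passed (limma adjusted p of 0.00846 to 0.0263), where 1.08% of all probes passed with a positive slope. With the array of alcohol in Cy5 alone for 4 months, 0 probes of all passed in limma, and the slope was 0.39 for Cyp3a11 and 0.49 for Cyp3a16, against 0.61 for Cyp3a41 and 0.68 and 0.66 for Cyp3a44. In that setting the slopes of Cyp3a25 turned to -0.19 and -0.08 and that of Cyp3a13 to -0.17. Cyp3a11, Cyp3a16, Cyp3a41 and Cyp3a44 stand in the study's own list of progressively induced genes, chosen on these arrays, so their direction here is not independent evidence.

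Within the family, 28 pairs of probes were compared by the difference of their log2 ratios at each time point. In all 15 pairs that set a probe of Cyp3a11, Cyp3a16, Cyp3a41 or Cyp3a44 against one of Cyp3a25 or Cyp3a13, the former had the higher ratio on 6 of 6 arrays, by 0.12 to 1.24 at 1 month, 0.87 to 1.67 at 2 months and 1.54 to 2.51 at 4 months. Among the 5 probes, the mean differences of the 10 pairs ran from -0.09 to 0.27, and in none of them was one probe higher on every array. Cyp3a13 exceeded both Cyp3a25 probes on all 6 arrays, by 0.55 ± 0.12 and 0.60 ± 0.20 (SD over 3 time points). An exact two-sided sign-flip test over 3 time points cannot go below p = 0.25, so no pair could pass, and the smallest value adjusted over the 28 pairs was 0.292.

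The level of each pool was read from a single channel, as log2 of the processed signal over the 75th percentile of that channel, and was compared within a probe only. For Cyp3a11 the control level was 4.10 and 4.22 at 1 month, 3.52 and 3.30 at 2 months, then 2.59 and 2.25 at 4 months, with the array of alcohol in Cy5 given first. Its alcohol level was 4.85 and 5.35, 4.28 and 5.10, and 4.32 and 5.33. The control pools stood lower at each later time on both arrays, whereas the alcohol pools of the 3 time points overlapped. The step of the control pools from 1 to 2 months, across the slides, was -0.75, beside a median of -0.39 over all probes tested, and -0.21 with median scaling.

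Between 2 and 4 months, which share a slide, the log2 control level of Cyp3a11 changed by -0.99 ± 0.09 and the alcohol level by 0.13 ± 0.13 (SD, n = 2 arrays). For Cyp3a16 the control change was -0.84 ± 0.17 and the alcohol change 0.29 ± 0.02, for Cyp3a41 -0.93 ± 0.008 and 0.01 ± 0.09, and for A_52_P571006 of Cyp3a44 -0.74 ± 0.26 and 0.33 ± 0.002. A_52_P366803 of Cyp3a44 differed, with -0.38 ± 0.62 in the control pools and 0.89 ± 0.48 in the alcohol pools. The larger ratio at 4 months than at 2 months went mainly with a lower control reading for 4 of the 5 probes and with a higher alcohol reading for A_52_P366803. Over all probes tested the median change was 0.01 in the control pools and 0.02 in the alcohol pools, with the 5th percentile of the control change at -0.80. With median scaling or with loess and Aquantile, the control changes of the 5 probes were -0.97 to -0.36 in both cases, while the alcohol change of Cyp3a41 turned to -0.01 with Aquantile.

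Each of these changes sets 1 pool against 1 pool. Beside them, the control level of 9 hepatocyte markers had a median change of -0.53 between 2 and 4 months and their alcohol level one of -0.48. The markers were uneven, with control changes of -1.10 ± 0.34 for Apoa1, an apolipoprotein, 0.15 ± 0.22 for Ttr, transthyretin, and -4.11 ± 4.36 for Alb, albumin, whose 2 arrays lay far apart. For the 7 ethanol-oxidizing genes the medians were -0.49 and -0.49, for the 13 acute phase and cytokine genes -0.87 and -0.47, and for the 31 other PXR and CAR target genes -0.18 and 0.24. The part of a general change of liver transcripts in the control readings of Cyp3a was not tested.

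**Figure D3:**
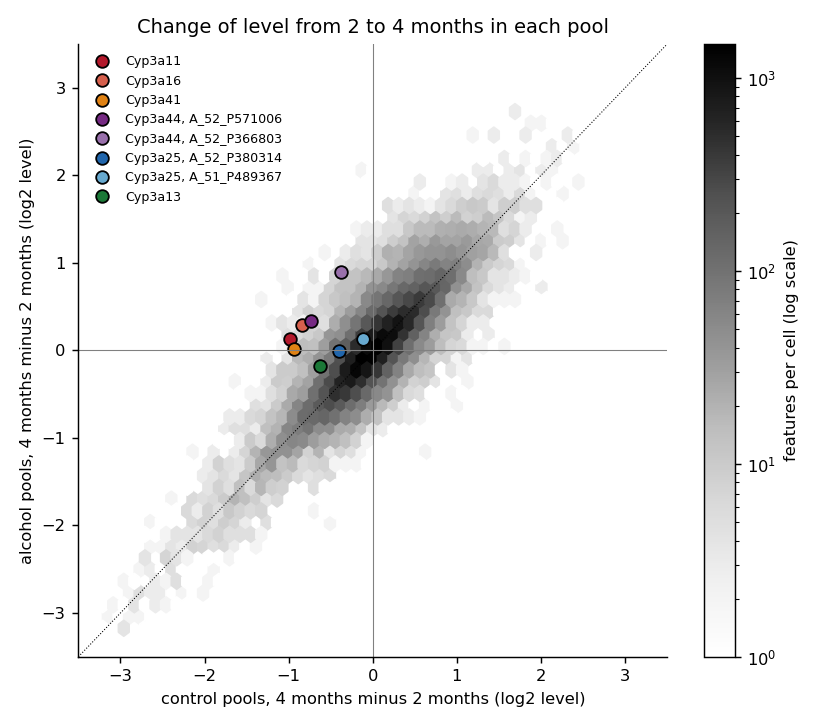
Change of level from 2 to 4 months in the control pools (x axis) and the alcohol pools (y axis), both in log2, for all probes tested (grey hexagons, darker with more probes on a log scale) and the 8 Cyp3a probes (colored points); the dotted diagonal marks equal change. Cyp3a11, Cyp3a16, Cyp3a41 and A_52_P571006 of Cyp3a44 lie at -0.99 to -0.74 in the control pools and 0.01 to 0.33 in the alcohol pools.

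From 1 to 4 months, across the slides, the control level of the 5 probes changed by -2.25 to -1.53, where the median of all probes changed by -0.41 on this scale. With median scaling the range was -1.69 to -0.98 and with loess and Aquantile -2.82 to -1.70, so each was lower under all 3 scalings. The alcohol level changed by -0.80 to 0.06 beside a median of -0.44, by -0.25 to 0.62 with median scaling and by -1.36 to -0.25 with Aquantile. Under all 3 scalings it was lower for Cyp3a41 and both Cyp3a44 probes, whereas for Cyp3a11 and Cyp3a16 the direction depended on the scaling. The control level of Cyp3a13 moved the other way, by 1.58 ± 0.14 from 1 to 2 months, and its alcohol level by 1.16 ± 0.48. These values held a positive sign under all 3 scalings, and time and slide cannot be told apart for them. From 1 to 4 months the levels of the Cyp3a25 probes changed by -0.12 and -0.43 in the control pools and by 0.08 and -0.21 in the alcohol pools, and with median scaling the control changes were 0.43 and 0.13, so the direction of the control changes depended on the scaling as well.

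**Figure D4:**
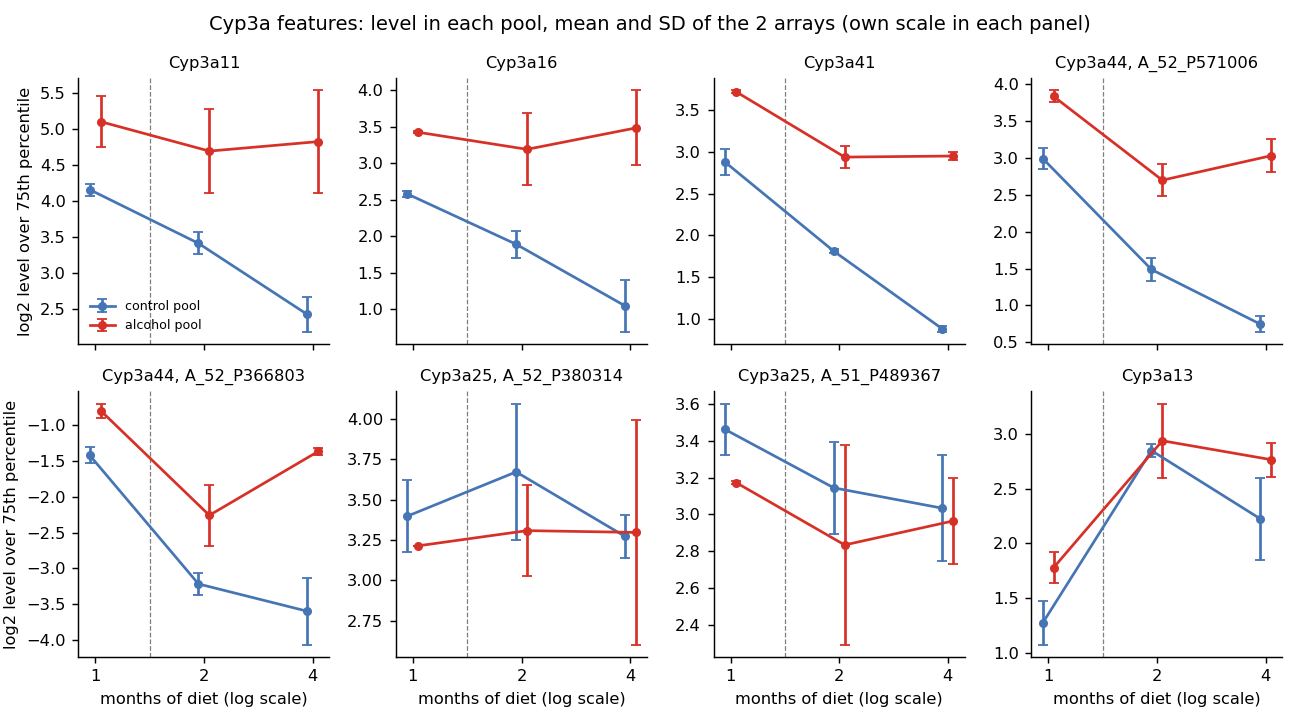
Level of the 8 Cyp3a probes (y axis, log2 of the processed signal over the 75th percentile of its channel, with its own scale in each panel) in the control and alcohol pools after 1, 2 and 4 months (x axis, log scale); points are means and bars the SD of the 2 arrays, and the dashed line separates the 2 slides. The control level of Cyp3a11 goes from 4.16 to 3.41 and 2.42, and that of Cyp3a13 from 1.27 to 2.85 and 2.23.

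Most genes of the receptors that act on Cyp3a genes stayed within 2-fold. Nr1i2 (PXR) had a log2 ratio of -0.10, 0.29 and 0.29 at 1, 2 and 4 months, and Nr1i3 (CAR) of 0.16, 0.10 and 0.01. Of the 10 receptor and partner genes, 0 were at least 2-fold higher at any time point and 1 was at least 2-fold lower, Foxa2, a liver transcription factor, at 4 months (-1.01). Their medians were 0.12, -0.06 and 0.04, beside medians of 0, 0.01 and -0.01 over all probes tested. Of all probes tested, 0.158%, 0.243% and 0.464% were at least 2-fold higher and 0.0949%, 0.182% and 0.338% at least 2-fold lower at 1, 2 and 4 months. In limma 0 genes of this or any other list below passed.

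Many of the other PXR and CAR targets also serve drug oxidation, conjugation or transport. Averaged ratios were above 0 for 26, 27 and 29 of 31 genes at 1, 2 and 4 months. The median over all probes tested was 0, 0.01 and -0.01. Some genes so counted lay near 0 with arrays of opposite sign, such as Ugt2b34 (0.03, 0.05 and 0.03). Of 33 listed genes 31 had a probe, and 6, 6 and 10 of them were at least 2-fold higher at 1, 2 and 4 months and 0 lower, with medians of 0.47, 0.29 and 0.54. Cyp2b10, the classical CAR target, had log2 ratios of 3.27, 2.77 and 4.03 (limma adjusted p = 0.221), and Cyp2b13, a female-predominant P450, 3.40, 2.88 and 2.37 (limma adjusted p = 0.212). Those were already large at 1 month, where the 5 Cyp3a probes read 0.62 to 0.94. Cyp2b9 (2.73, 1.11 and 1.87), Gsta2, a glutathione transferase (1.56, 0.84 and 0.81), and Ugt1a9, a glucuronosyltransferase (1.63, 0.17 and 0.43), were largest at 1 month, while Cyp2c39 (0.67, 1.07 and 1.84), Cyp2a5 (0.83, 1.13 and 2.22) and Gadd45b, a stress-response gene (0.20, 1.51 and 2.27), were largest at 4 months. Second probes of these genes, not used for the lists, differed in size. They read 4.33, 3.43 and 3.88 for Cyp2b9, 2.62, 3.02 and 3.68 for Cyp2b10, 0.69, 0.89 and 1.49 for Cyp2a5 and 0.00, 2.95 and 4.06 for Gadd45b. That of Cyp2b13 read 1.24, 0.17 and 0.19, so the ratios of Cyp2b13 at 2 and 4 months depended on the probe.

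Among the proteins that supply P450 enzymes with electrons or heme, Alas1, the rate-limiting enzyme of heme synthesis, read 1.03, 0.64 and 0.36, and Por, the P450 reductase, 0.28, 0.05 and 0.37. Of the 11 genes 1, 0 and 0 were at least 2-fold higher and 0 lower, with medians of 0.05, -0.02 and -0.06. Both genes also stand in the list of targets.

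The sex-dependent liver genes were set beside them. Without the Cyp3a genes, a reduction chosen after the values were seen, 12 female-predominant genes were tested, and 3, 2 and 5 were at least 2-fold higher and 0 lower, with medians of 0.17, 0.15 and 0.66. With the 3 Cyp3a genes the counts were 3, 5 and 8 of 15. Cyp2a4, Cyp2b9 and Cyp2b13 also stand in the list of PXR and CAR targets and make up 2, 2 and 3 of the genes counted outside the family, so the 2 lists are not separate observations. At 2 and 4 months Cyp2b13 is counted through its brighter probe, and its second probe did not reach 2-fold there. Sult3a1, a sulfotransferase, read -0.47, -0.14 and 2.14 and did not reach 2-fold higher before 4 months. Of 14 male-predominant genes 0 were at least 2-fold higher, and 5, 2 and 7 were at least 2-fold lower, with medians of -0.73, -0.29 and -1.02. Hsd3b5, a steroid dehydrogenase of male liver, read -2.93, -2.04 and -4.83, and Cyp7b1, an oxysterol hydroxylase, -1.55, -1.42 and -1.64 (limma adjusted p = 0.106).

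Genes of growth hormone signaling had medians of 0.00, -0.05 and 0.03 over 11 genes, and 0 were at least 2-fold higher. Single genes ran up to 0.19, 0.31 and 0.75 at 1, 2 and 4 months. At each time point 1 was at least 2-fold lower. This was Bcl6 at 1 month (-1.21) and Cish, a feedback inhibitor of STAT5, at 2 and 4 months (-1.67 and -1.32). The 10 bile acid genes had medians of -0.23, -0.13 and -0.09, with 0 higher and 1, 1 and 2 lower by at least 2-fold. These were Cyp7b1, which also stands in the male-predominant list, and, at 4 months, Cyp8b1 (-1.10). Cyp8b1 read -1.89 with alcohol in Cy5 and -0.30 with alcohol in Cy3 there. The 13 acute phase and cytokine genes had medians of 0.03, -0.05 and -0.10 and 0, 1 and 1 genes at least 2-fold higher, Lcn2 in both cases (1.29 and 1.04). Among 7 ethanol-oxidizing genes, with medians of 0.07, -0.19 and -0.02, 1 was at least 2-fold lower, Adh4 at 4 months (-1.24), and Cyp2e1 read 0.07, 0.08 and 0.19.

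**Figure D5:**
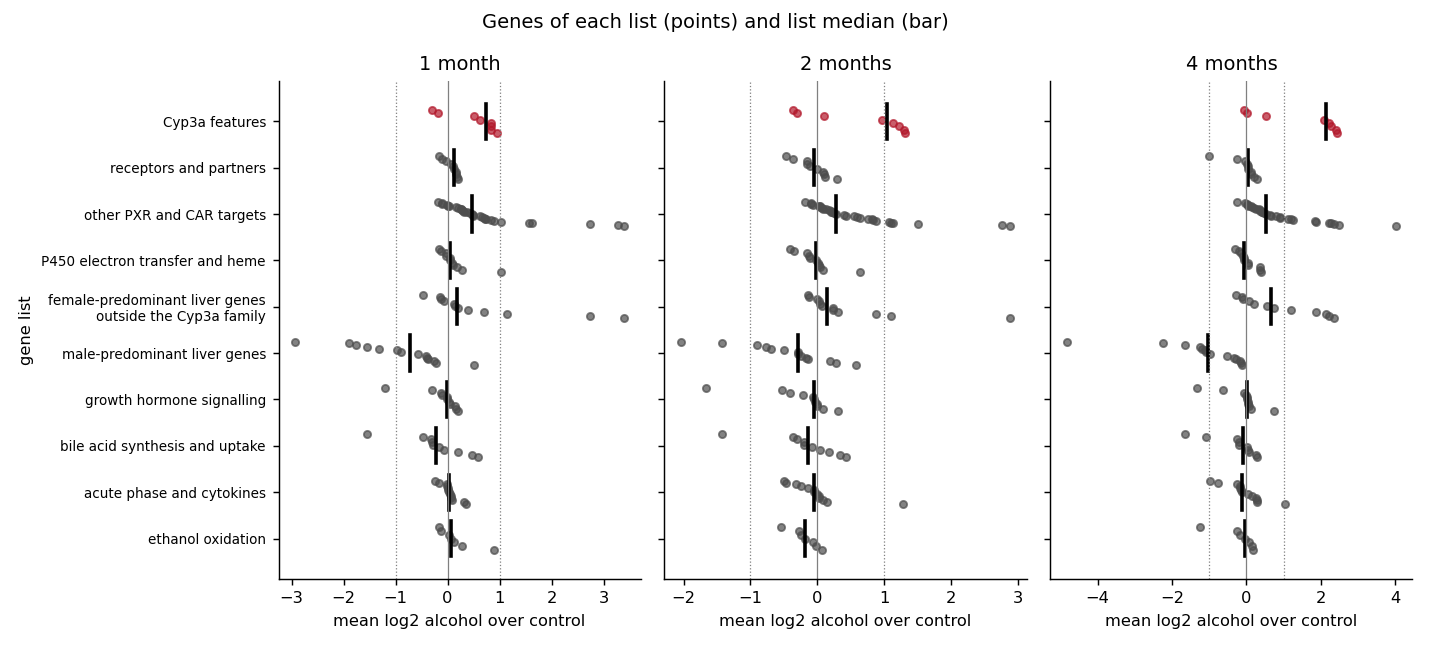
Averaged log2 alcohol over control ratio (x axis) of each gene (points) in the gene lists named on the y axis at 1, 2 and 4 months, with the median of a list as a black bar, the Cyp3a probes in red and dotted lines at 2-fold. The Cyp3a median goes from 0.73 to 1.05 and 2.15, and that of the other PXR and CAR targets from 0.47 to 0.29 and 0.54.

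The genes closest to each member were sought among 20159 probes of named genes outside the family by the root-mean-square difference of the 6 array log2 ratios, taking the brighter probe of Cyp3a44 and of Cyp3a25. Likeness here is of ratios and says nothing of shared control. For Cyp3a11, Cyp3a16, Cyp3a41 and A_52_P571006 of Cyp3a44 the nearest was Cyp2c38, a P450 of the Cyp2c family, at 0.40, 0.33, 0.25 and 0.20, followed by Cyp2c39 at 0.43, 0.40, 0.37 and 0.36. The next was Gadd45b for Cyp3a11 (0.56) and Cyp3a16 (0.51) and Cyp2a5 for Cyp3a41 (0.41) and Cyp3a44 (0.39). Cyp2c38 read 0.62, 1.25 and 2.12 at 1, 2 and 4 months, and its second probe 0.46, 1.08 and 0.94. Its control level changed by 0.13 ± 0.27 and its alcohol level by 1.01 ± 0.26 from 2 to 4 months. For A_52_P380314 of Cyp3a25 the nearest were Timd2 (0.07), Hsp90b1 (0.11) and Cyp4f14 (0.11), and for Cyp3a13 they included Acaa1b (0.11) and Abcc3 (0.16). Probes near equality, such as those of Cyp3a25, have close neighbors more easily than probes with large ratios.

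Markers of the cells that a liver piece could hold were read in the same way. Of the 9 hepatocyte markers 0 differed by 2-fold between the diets, with medians of 0.27, 0.03 and 0.08. Their summed levels (relative to the 75th percentile) were 226, 221 and 116 in the control pools and 222, 240 and 141 in the alcohol pools. The sums include Alb, whose log2 level changed by -4.11 ± 4.36 in the control and -3.55 ± 3.61 in the alcohol pools from 2 to 4 months. Of 12 pancreas acinar markers 0 differed by 2-fold at 1 and 2 months, but at 4 months all 12 were above 0, 4 were at least 2-fold higher and the median was 0.77, with summed levels of 19.6 in the control and 26.3 in the alcohol pool against 16.9 to 19.2 in the other pools. Those 4 were Cela2a (3.75), Pnliprp1 (2.42), Cpb1 (2.17) and Reg1 (1.90), none of which was well above background on every array. Their part in the Cyp3a ratios was not tested. For the other 7 marker lists, of pancreas endocrine, enterocyte, Kupffer, stellate, endothelial, bile duct and erythroid cells, the medians ran from -0.16 to 0.55, and 3 of their genes were at least 2-fold higher, all at 1 month. These were the globin genes Hbb-b1 (1.97) and Hba-a1 (1.51), with the summed erythroid level at 28.5 in the control and 87.9 in the alcohol pool, and the macrophage gene Adgre1 (1.23). At 1 month the averages of all 6 endothelial markers (median 0.44) and all 7 Kupffer cell and macrophage markers (median 0.23) were above 0. Those of Marco (0.01), Cd5l (0.02) and Clec4f (0.05) were near 0, and their 2 arrays differed in sign. At 4 months the erythroid gene Alas2 was at least 2-fold lower. The part of these cells in the Cyp3a ratios was not tested. Xist, of the inactive X chromosome of females, read -0.18, 0.18 and 0.12, and the Y-linked genes Ddx3y, Eif2s3y, Uty and Kdm5d read -0.29 to 0.05, with medians over the 5 genes of -0.14, -0.02 and -0.12.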

How the data were processed

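The authors deposited the output of Agilent Feature Extraction 9.1.1.1 for 6 two-color arrays, holding, per spot, background-subtracted and dye-normalized intensity values of both channels, the log10 ratio of Cy5 over Cy3 and a modeled error of it, a technical score. A deposited table of log10 ratios of the same arrays, already turned to alcohol over control, served as an alternative, and no value of it differed from the scanner ratio by more than 0.016 on the log2 scale. Total RNA had been labeled as cDNA. No genome build of the probe design is given in the sources used here.

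Control spots were left out, spots of a probe averaged, and log10 ratios turned to alcohol over control, brought to log2 and averaged over the dye-swap pair. Effects and slopes were fitted with limma 3.58.1 in R 4.3.3 over 37922 probes, with 3 time points as replicates and Benjamini-Hochberg adjustment at 0.05; the fit was tested on simulated data. Promoters were aligned with Biopython 1.88, figures drawn with matplotlib 3.10.9, and the rest computed in Python 3.11.15 with scipy 1.17.1, pandas 2.3.3 and numpy 2.4.6. Gene symbols were updated through RefSeq for 22944 of the 25510 probes with a RefSeq-like accession. A gene of a list was read by its probe of highest mean signal over the 12 channels. Named genes were all Cyp3a probes, genes of the lists and the 3 probes most like each member. The members, the 9 gene lists and the 10 marker lists were chosen with earlier results of these data known, from general knowledge. Alternatives were normexp (offset 50) with loess, the deposited table, an error-weighted average, each array or month left out, median centring, other thresholds and filters, no moderation, another time scale, other channel scalings and members by current symbol. The number of arrays limits the precision. Protein sequences were not used here, and some genes that this rule names are not reported here.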

Additional observations from a re-analysis of the deposited data

How the results depend on the processing

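The averaged ratios of Cyp3a11, Cyp3a16, Cyp3a41 and Cyp3a44 were positive under every alternative run, as were their mean effects and slopes. The number of Cyp3a probes raised was 5 at 1 month at 1.5-fold, and 1 at 2 months when 2-fold was required on each of the 2 arrays. With 1 array standing for a month, it was 0 to 1 at 1 month, 1 to 5 at 2 months and 5 to 5 at 4 months; at 2 months 1 was left by the Cy5-alcohol array alone. Over all probes, limma called 9 effects and 50 slopes after normexp and loess, 6 effects over the 27900 probes with signal above background in every channel, and 1 slope without moderation. With 1 array of a pair left out it called 0 to 2 effects and 0 to 612 slopes, the 612 without the array of 4 months with alcohol in Cy5. The averaged ratio of A_52_P380314 of Cyp3a25 changed sign at 2 and 4 months with 1 array alone, and that of A_51_P489367 at 4 months, as did that of Cyp3a13 at 2 months; these were not raised or lowered. The error-weighted average also turned A_52_P380314 at 4 months (-0.02), and its mean effect turned to 0.02 without the 4-month array of alcohol in Cy5. Of the medians of gene and marker lists, 57 moved by more than the SD of the 2 arrays and 303 did not. Of the changes of Cyp3a levels between time points under other channel scalings, 55 moved by more than that SD and 41 did not. Causes were not tested. Leaving out a month left 0 effects called, with the means of the 5 probes still positive. With 1 pool of each diet per time point, no setting measures the spread between mice.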
